A study of Mus musculus with 6 samples.

Results

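The enzymes of glycolysis, of the pyruvate dehydrogenase step and of the citrate cycle were followed in sorted mouse prostate epithelial cells. The 41 genes were taken by symbol from the 24498 genes of the count table, and all 41 were among the 13846 genes that passed the filter on low counts. They cover glucose uptake, glycolysis, lactate dehydrogenase, the pyruvate dehydrogenase complex with its kinases, the mitochondrial citrate cycle, and cytosolic enzymes and carriers that handle citrate, isocitrate, malate and aspartate. RNA was sequenced in bulk from 6 libraries in 3 groups of 2. The Nkx intact and Nkx castrate groups came from male mice of the Nkx3.1;EYFP model, in which Nkx3.1-CreER(T2), an inducible Cre recombinase driven from the gene of a luminal transcription factor, is combined with the yellow fluorescent Gt(ROSA)26Sortm1(EYFP)Cos reporter. The Clu intact group came from male mice of the Clu;tdTomato model, in which Clu-CreER(T2), driven from the gene of the secreted chaperone clusterin, is combined with the red fluorescent Gt(ROSA)26Sortm14(CAG-tdTomato)Hze reporter. Castration was done, or not, in mice aged 8 weeks, tissue was taken after a further 4 weeks, and cells positive for the reporter were sorted directly into lysis buffer. Nothing is given in the sources used here on the time and agent of Cre induction, on any gate beyond the reporter, or on whether libraries came from separate animals or pools. Levels given as after castration are those of Nkx castrate. The p-values rest on the spread among libraries, and this may be technical. The Nkx3.1 and Clu groups differ in driver and reporter line together, so line and cell population cannot be told apart.

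Glycolysis splits glucose into pyruvate in the cytosol. Glucose enters through a transporter, is trapped by hexokinase, is committed by phosphofructokinase and is cut by aldolase, and the trioses are then oxidised and rearranged to pyruvate by pyruvate kinase. Lactate dehydrogenase turns pyruvate into lactate, while the pyruvate dehydrogenase complex turns it into acetyl-CoA, which citrate synthase joins to oxaloacetate to make citrate. Pyruvate dehydrogenase kinases switch that complex off by phosphorylation. The secretory cells of the prostate are known for exporting citrate into the prostatic fluid instead of oxidising all of it. Androgen maintains this secretory state.

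Total counts lay between 10220118 and 17412874 per library, the 41 genes took 0.411% to 0.535% of them, and the lowest count of any of the 41 in a library was 44. Levels are counts scaled to library size by TMM and expressed as CPM, where 1 count was 0.0561 to 0.0988 CPM. Of 8 luminal markers, 7 had counts in every library and Spink1 was at 0 in Nkx intact 1 and Nkx castrate 1. The luminal sum was 17514 and 21604 CPM in Nkx intact, 5102 and 6175 CPM after castration and 10968 and 9065 CPM in Clu intact. Single luminal markers, looked up after the sums were seen, did not all follow the sum. The secretory genes Tgm4 and Pbsn were at 8396 and 11255 and at 5393 and 6937 CPM in Nkx intact, and at 4.21 and 1.85 and at 106 and 112 CPM after castration. The luminal keratins Krt8 and Krt18 were at 792 and 705 and at 1168 and 942 CPM in Nkx intact, and higher after castration, at 2180 and 2558 and at 2132 and 2590 CPM. The 5 basal cell markers were detected in all 6 libraries as well. Their sum was 2704 and 2916 CPM in Nkx intact, 2686 and 1585 CPM after castration and 1511 and 1847 CPM in Clu intact. All 5 were higher in Nkx castrate 1 than in Nkx castrate 2. The 5 markers of proximal luminal cells summed to 3029 and 3385 CPM in Clu intact and to at most 306 CPM in any Nkx library. Ly6d did not follow that sum, at 2.36 and 3.95 CPM in Clu intact and 8.42 and 9.76 CPM after castration. Nkx castrate 1 stood apart from Nkx castrate 2. It was higher in 10 of 10 leukocyte markers (sums of 174 and 24.3 CPM), in 10 of 10 fibroblast and smooth muscle markers (2137 and 538 CPM) and in 6 of 6 endothelial markers (312 and 42.2 CPM). In the other 4 libraries the leukocyte sum was 18 to 97.9 CPM and the fibroblast and smooth muscle sum 566 to 749 CPM. The collagens Col1a1, Col1a2 and Col3a1 did not follow that sum, at 46.3, 46 and 45.3 CPM in Nkx castrate 1. In Nkx intact they were at 79.2 and 72.8, 73.3 and 56.1, and 87.2 and 66.3 CPM. The endothelial sum was 786 and 320 CPM in Clu intact, above every Nkx library, and 47.1 and 29.1 CPM in Nkx intact. In bulk samples, fewer cells of a type and less RNA per cell cannot be told apart.

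Differences were tested with edgeR's quasi-likelihood test on all 13846 genes with Benjamini-Hochberg adjustment, and a gene is said to have risen, fallen or been called where its adjusted p was under 0.05. Most of the 41 genes were not called: 34 were called in none of the 3 comparisons, 4 in 1 and 3 in 2. Castration was accompanied by 1 called gene, Aldoc, which rose, and 0 that fell, where 8.61% of all genes tested were called, 4.02% higher and 4.59% lower. At an unadjusted p under 0.05, 5 of the 41 were higher and 3 lower, beside 11.9% and 11.6% of all genes. By DESeq2 3 were higher and 0 lower, beside 7.52% and 7.32% of all genes with an adjusted p. In Clu intact against Nkx intact cells 3 genes were higher (Hk1, Pkm and Idh2) and 2 lower (Pfkm and Pdk4), beside 6.29% and 5% of all genes (11.3% together). In Clu intact against Nkx castrate cells 3 genes were higher (Pkm, Ldhb and Idh2) and 1 was lower (Aldoc), beside 8.82% and 8.1% of all genes (16.9% together). The comparisons share groups, so a gene called in 2 of them is not 2 separate results.

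**Figure D1:**
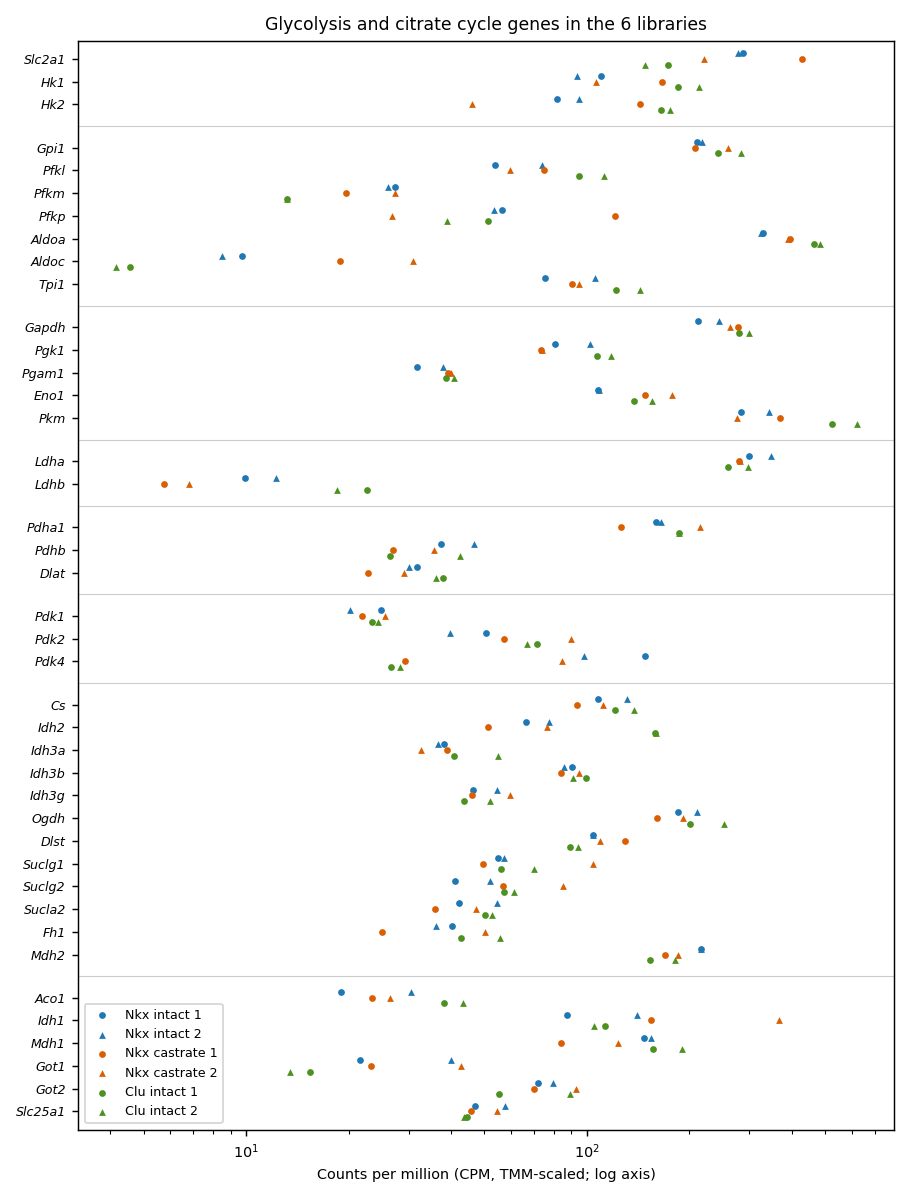
CPM (log axis) of each of the 41 genes in each of the 6 libraries, grouped by pathway step, with 1 point per library. Aldoc stands highest in the Nkx castrate libraries (18.9 and 30.9 CPM), while Pkm and Idh2 stand highest in the Clu intact libraries (525 and 622 CPM, and 158 and 160 CPM).

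The starts of the 3 genes called in 2 comparisons are printed for reference, each as the 250 bases before a RefSeq start site in build GRCm38.p6, 5' to 3' on the gene's strand. Capitals mark the letters ACGTG or GCGTG on either strand, the core of the motif through which the hypoxia-inducible factors are known to bind glycolytic genes. For Aldoc (chr11:78322823-78323072, plus strand) and Pkm (chr9:59656977-59657226, plus strand) 1 of 2 listed starts is shown, and Idh2 (chr7:80115351-80115600, minus strand) has 1.
Aldoc: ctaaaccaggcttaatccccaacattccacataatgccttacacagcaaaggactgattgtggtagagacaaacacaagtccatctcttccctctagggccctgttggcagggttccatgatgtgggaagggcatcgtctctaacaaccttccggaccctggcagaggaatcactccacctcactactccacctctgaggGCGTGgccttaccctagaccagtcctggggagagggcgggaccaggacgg
Pkm: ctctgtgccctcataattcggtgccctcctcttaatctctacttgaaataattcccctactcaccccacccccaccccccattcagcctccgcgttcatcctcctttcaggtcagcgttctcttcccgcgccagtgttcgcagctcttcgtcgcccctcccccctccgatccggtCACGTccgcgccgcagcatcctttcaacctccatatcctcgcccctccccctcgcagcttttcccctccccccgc
Idh2: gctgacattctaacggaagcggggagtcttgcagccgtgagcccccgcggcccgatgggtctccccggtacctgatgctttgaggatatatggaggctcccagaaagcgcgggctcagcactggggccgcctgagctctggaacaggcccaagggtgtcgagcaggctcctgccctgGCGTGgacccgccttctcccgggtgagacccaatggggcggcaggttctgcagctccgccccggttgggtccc
Each of the 3 windows held 1 match, 50 bases before the start in Aldoc, 75 in Pkm and 73 in Idh2. The other start held 1 in Aldoc and 0 in Pkm. The table held 59 promoters for 40 of the 41 genes, and 43 of them (72.9%) held the core, against 12679 of all 32851 promoters in the table (38.6%). The promoters of the 41 genes were also richer in G and C, with a median of 60.8% against 52.4%, and the core itself is made mostly of these letters. The half-site of the androgen receptor (AGAACA or TGTTCT on either strand) was in 10 of the 59 (16.9%), against 16.1% of all promoters. A match is a description of letters and not of binding.

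At the entry of the pathway, Hk1, the hexokinase of most tissues, was higher in Clu intact than in Nkx intact cells. Hk1 was at 110 and 93.4 CPM in Nkx intact, 167 and 106 after castration and 185 and 213 in Clu intact. Both Clu intact libraries were above all 4 Nkx libraries. Against Nkx intact the log2 fold change was 0.97 (SE 0.24, edgeR quasi-likelihood, Benjamini-Hochberg adjusted p = 0.0384), a 1.96-fold difference, and against Nkx castrate it was 0.54 (SE 0.24, adjusted p = 0.156). The call was lost without any of the 4 libraries of Clu intact and Nkx intact (adjusted p = 0.112 to 0.25). The exons of Hk1 overlap a gene on the opposite strand (Hk1os), and the strand setting of the counting is not given in the sources used here. Hk2, the hexokinase induced by insulin and hypoxia, was at 82 and 94.7 CPM in Nkx intact, 143 and 46.1 after castration and 165 and 176 in Clu intact. Its Clu intact libraries were also above all 4 Nkx libraries, but the spread within Nkx castrate was wide and Hk2 was not called (adjusted p = 0.22 and 0.225 by edgeR's quasi-likelihood test, adjusted by Benjamini-Hochberg, against Nkx intact and Nkx castrate).

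Slc2a1 encodes the glucose transporter GLUT1 and was lowest in Clu intact cells. It stood at 287 and 279 CPM in Nkx intact, 427 and 221 after castration and 173 and 148 in Clu intact, so both Clu intact libraries were below all 4 Nkx libraries. The log2 fold change of Clu intact was -0.82 against Nkx intact (SE 0.29, adjusted p = 0.121) and -1.01 against Nkx castrate (SE 0.29, adjusted p = 0.0503), by edgeR's quasi-likelihood test, adjusted by Benjamini-Hochberg, and neither passed. By DESeq2 Clu intact was called lower in both, and with RLE size factors lower than Nkx castrate. Summed over Slc2a1, Hk1 and Hk2, CPM were 479 and 467 in Nkx intact, 736 and 373 after castration and 523 and 537 in Clu intact. In Clu intact this sum adds a transporter below, and hexokinases above, all 4 Nkx libraries.

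In the hexose and aldolase steps, Aldoc was the gene that differed with castration. Aldoc encodes aldolase C, the brain-type isoenzyme of the enzyme that cuts fructose bisphosphate. It was at 9.76 and 8.49 CPM in Nkx intact, 18.9 and 30.9 after castration and 4.56 and 4.14 in Clu intact, and the 3 groups did not overlap. Nkx castrate (24.9 ± 8.52 CPM, SD, n = 2) was 2.72-fold above Nkx intact (9.13 ± 0.893 CPM, SD, n = 2), a log2 fold change of 1.44 (SE 0.35, edgeR quasi-likelihood, Benjamini-Hochberg adjusted p = 0.0481). Clu intact was 5.71-fold below Nkx castrate (log2 fold change -2.51, SE 0.36, adjusted p = 0.00437 by the same test), and its difference from Nkx intact was not called (-1.07, SE 0.37, adjusted p = 0.112). The rise with castration was near the threshold and was not called with limma-voom (adjusted p = 0.0762) or with only the 2 groups in the fit (adjusted p = 0.0872). It was lost without any of 5 of the 6 libraries, where the log2 fold change was 1.04 to 1.54. Without Nkx castrate 1 it was 1.76, but that fit rests on a lone castrate library, so no call is drawn from it. The lower level in Clu intact than in Nkx castrate was lost without Clu intact 2 (-2.42, adjusted p = 0.0501). Where a library is left out, the lone library of its group is assumed to vary like the others.

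Aldoa, the main aldolase, had the highest level per kilobase of exon of the 41 genes in all 3 groups, with a mean of 112, 134 and 163 CPM per kilobase in Nkx intact, Nkx castrate and Clu intact. Its CPM were 328 and 324, 394 and 389, and 463 and 485 in the same order, without overlap between groups, and it was called in none of the comparisons. Aldoc was thus a small part of the aldolase RNA. Per kilobase it made up 2.58% and 2.28% of the pair in Nkx intact, 4.1% and 6.62% after castration and 0.87% and 0.756% in Clu intact.

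The phosphofructokinases, which commit sugar to glycolysis, differed by isoenzyme. Pfkm, the muscle-type subunit, was at 27.3 and 26.1 CPM in Nkx intact, 19.7 and 27.3 after castration and 13.2 in both Clu intact libraries. Clu intact was 2.02-fold below Nkx intact (log2 fold change -1.02, SE 0.26, edgeR quasi-likelihood, Benjamini-Hochberg adjusted p = 0.048), and its log2 fold change against Nkx castrate was -0.83 (SE 0.26, adjusted p = 0.0688), which did not pass. The call was lost without any of the 4 libraries of Clu intact and Nkx intact (adjusted p = 0.184 to 0.287) and with limma-voom (adjusted p = 0.0783). Pfkm shares exon sequence with genes on the opposite and the same strand, which leaves its counts uncertain. Pfkl, the liver-type subunit, was at 53.9 and 74.1 CPM in Nkx intact, 75 and 59.7 after castration and 94.7 and 113 in Clu intact, and was not called. Both Clu intact libraries were above all 4 Nkx libraries for Pfkl and below them for Pfkm. Per kilobase, Pfkl took 64.6% and 71.1% of the 3 phosphofructokinases in Clu intact, and 39.5% to 48.5% in the Nkx libraries. The shares of isoenzymes are given as values, without a test.

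Pfkp, the platelet-type subunit, showed how far the castrate libraries parted. Its CPM were 56.3 and 53.2 in Nkx intact, 121 and 26.8 after castration and 51.2 and 38.9 in Clu intact. The 2 castrate libraries lay on either side of the intact ones and differed 4.52-fold, and Hk2 differed 3.11-fold between them. The log2 fold change of Nkx castrate against Nkx intact was 0.43 for Pfkp and 0.1 for Hk2 (edgeR quasi-likelihood, Benjamini-Hochberg adjusted p = 0.71 and 0.926). Without Nkx castrate 1 the log2 fold changes became -1.03 for Pfkp and -0.94 for Hk2. Without Nkx castrate 2 they became 1.13 and 0.69. Each of these fits rests on a lone castrate library, so no call is drawn from it. Pfkp and Hk2 were singled out after their values were seen, because their castrate libraries parted. Of the 2 castrate libraries, Nkx castrate 1 had the higher basal, leukocyte, stromal and endothelial marker sums given above. The part of these cells in Hk2 and Pfkp was not tested.

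The remaining hexose-step genes were not called. Gpi1, which turns glucose 6-phosphate into fructose 6-phosphate, was at 208 to 284 CPM over all 6 libraries. Tpi1, which interconverts the trioses, was at 75.3 and 106 CPM in Nkx intact, 90.3 and 94.6 after castration and 122 and 143 in Clu intact, with both Clu intact libraries above all 4 Nkx libraries. Its log2 fold change of Clu intact was 0.55 against Nkx intact (SE 0.21, edgeR quasi-likelihood, Benjamini-Hochberg adjusted p = 0.143), and ran from 0.34 to 0.82 over the libraries left out. Over the 7 genes of the hexose and aldolase steps, CPM summed to 762 and 809 in Nkx intact, 927 and 887 after castration and 990 and 1080 in Clu intact.

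**Figure D2:**
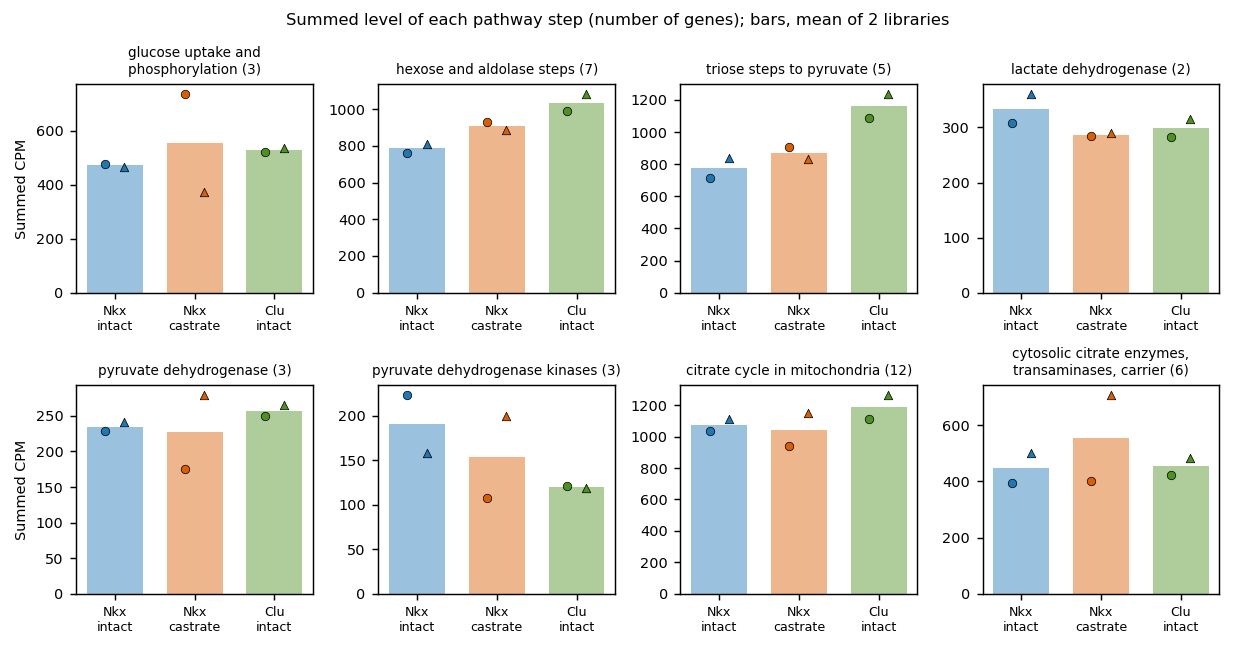
Summed CPM of the genes of each pathway step in each library, with a bar at the mean of each group and 1 point per library. The triose steps to pyruvate stand at 1088 and 1235 CPM in Clu intact, above the 715 to 907 CPM of the 4 Nkx libraries, while the castrate libraries lie apart for glucose uptake (736 and 373 CPM).

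In the triose steps to pyruvate, Pkm was higher in Clu intact cells than in both Nkx groups. Pkm encodes pyruvate kinase M, which makes pyruvate and ATP from phosphoenolpyruvate. It was at 282 and 343 CPM in Nkx intact, 368 and 275 after castration and 525 and 622 in Clu intact, and both Clu intact libraries were above all 4 Nkx libraries. The log2 fold change was 0.88 against Nkx intact (SE 0.21, adjusted p = 0.0357) and 0.83 against Nkx castrate (SE 0.21, adjusted p = 0.032) by edgeR's quasi-likelihood test, adjusted by Benjamini-Hochberg, or 1.83-fold and 1.78-fold. The Nkx groups themselves did not differ beyond their spread (322 ± 65.4 and 313 ± 42.7 CPM, SD, n = 2 each). The call against Nkx intact was lost without any of the 4 libraries compared (adjusted p = 0.103 to 0.257). The comparison with Nkx castrate was lost without any Nkx intact or Clu intact library, with adjusted p from 0.0647 to 0.216. It was also lost with only these 2 groups in the fit (adjusted p = 0.0759). The exons of Pkm overlap another gene on the same strand (Gm49759). The counts are of the whole gene, so the M1 and M2 splice forms are not separated here.

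The other 4 genes of these steps were not called in any comparison. Gapdh, which oxidises glyceraldehyde 3-phosphate, was at 212 and 245 CPM in Nkx intact, 278 and 263 after castration and 280 and 299 in Clu intact. Eno1, the main enolase, was at 108 in both Nkx intact libraries, 148 and 178 after castration and 138 and 156 in Clu intact, and so was higher in each of the other 4 libraries than in Nkx intact. Eno1 was called higher in Nkx castrate than in Nkx intact by DESeq2 but not by edgeR. Pgk1, which makes the first ATP of the triose steps, was at 73.5 and 73.8 CPM in Nkx castrate, below the 80.7 and 102 CPM of Nkx intact and the 107 and 118 CPM of Clu intact. Pgam1, the phosphoglycerate mutase, was at 31.8 to 40.7 CPM in all 6 libraries. Gapdh, Pgk1, Pgam1, Eno1, Pkm, Aldoa, Tpi1 and Ldha have processed copies in the mouse genome, and how reads with several alignments were counted is not given in the sources used here, so their levels are uncertain to that extent.

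At lactate dehydrogenase, the groups differed in the minor subunit. Ldha, the subunit that favours lactate formation, was at 298 and 347 CPM in Nkx intact, 279 and 282 after castration and 260 and 297 in Clu intact. Ldhb, the heart-type subunit, was at 9.95 and 12.2 CPM in Nkx intact, 5.72 and 6.8 after castration and 22.6 and 18.4 in Clu intact, with no overlap between the 3 groups. Clu intact was 3.28-fold above Nkx castrate (log2 fold change 1.71, SE 0.32, edgeR quasi-likelihood, Benjamini-Hochberg adjusted p = 0.0117). The differences of Nkx castrate (-0.83, SE 0.33, adjusted p = 0.179) and Clu intact (0.89, SE 0.32, adjusted p = 0.132) from Nkx intact were not called. The call was lost without Clu intact 1 (1.58, adjusted p = 0.1) or Clu intact 2 (1.88, adjusted p = 0.0674). Per kilobase, Ldhb made up 15.5% and 11.6% of the pair in Clu intact, 6.57% and 6.92% in Nkx intact, and 4.15% and 4.84% in Nkx castrate.

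Genes of the pyruvate dehydrogenase complex were not called in any comparison. Pdha1, the catalytic subunit that the kinases phosphorylate, was at 160 and 165 CPM in Nkx intact, 126 and 215 after castration and 186 in both Clu intact libraries. Pdhb, its partner subunit, was at 26.4 to 46.7 CPM over all libraries. Dlat, the acetyltransferase core, was at 22.7 and 29 CPM in Nkx castrate, 31.7 and 30 in Nkx intact, and 37.7 and 36 in Clu intact. Of 9 results for these 3 genes, 7 had a 95% interval within 2-fold either way.

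Among the kinases that switch the complex off, Pdk4 had the largest difference of the 41 genes between Clu intact and Nkx intact cells. Pdk4, the kinase induced by fasting and fatty acids, was at 148 and 98.2 CPM in Nkx intact, 29.4 and 84.3 after castration and 26.7 and 28.2 in Clu intact. Both Nkx intact libraries were above the other 4. Clu intact was 4.48-fold below Nkx intact (log2 fold change -2.16, SE 0.44, edgeR quasi-likelihood, Benjamini-Hochberg adjusted p = 0.0227), and this was lost without any of the 4 libraries compared (adjusted p = 0.0824 to 0.161). Nkx castrate against Nkx intact gave -1.12 (SE 0.44, adjusted p = 0.177), and Clu intact against Nkx castrate -1.05 (SE 0.44, adjusted p = 0.15), neither of them called. Both of these turned on which castrate library was kept. Without Nkx castrate 2 they became -2.07 and -0.09, and without Nkx castrate 1 they became -0.54 and -1.62.

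Pdk2, the kinase of most tissues, was at 50.6 and 39.6 CPM in Nkx intact, 57.2 and 90 after castration and 71.2 and 66.8 in Clu intact, and Pdk1, a target of hypoxia-inducible factor, at 20.1 to 25.6 CPM in all libraries. Neither was called. Per kilobase, Pdk4 made up 68.7% and 64.9% of the 3 kinases in Nkx intact, 28.6% and 43% after castration and 22.9% and 24.9% in Clu intact. Pdk2 made up 26.1% and 29.1%, 61.8% and 51.1%, and 68% and 65.4% in the same order. Of these 3 kinases the most abundant per kilobase was thus Pdk4 in both Nkx intact libraries and Pdk2 in the other 4. Pdk3, a further kinase outside the 41 genes, was at 21.2 and 28.1 CPM in Nkx intact, 13.6 and 10.5 after castration and 22.4 and 30.9 in Clu intact. With Pdk3 counted in, Pdk4 made up 60.5% and 51.8% of the 4 kinases in Nkx intact, 24.2% and 40.1% after castration and 18.2% and 18.1% in Clu intact, where Pdk3 made up 20.9% and 27.2%.

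**Figure D3:**
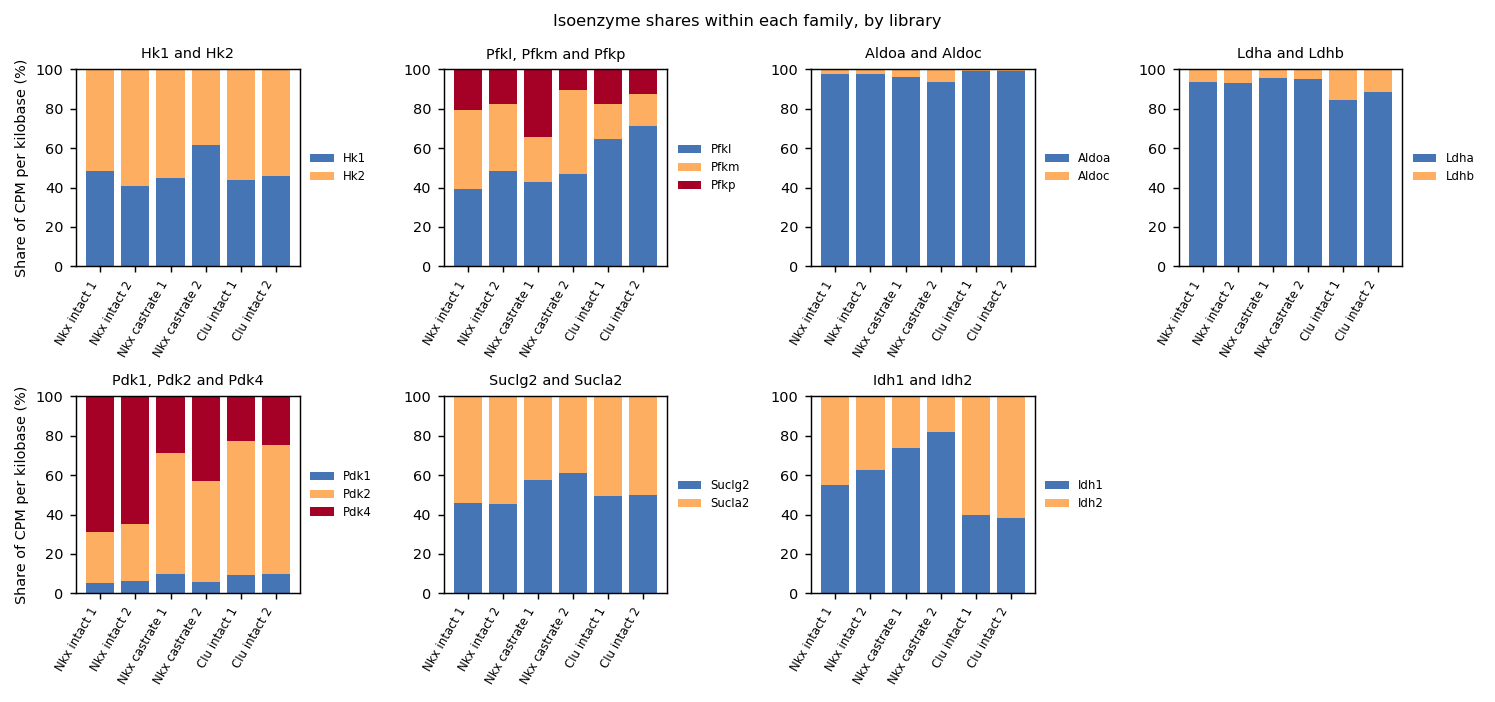
Share in percent of each isoenzyme in its family, from CPM per kilobase of merged exon, in each of the 6 libraries. Pdk4 takes 64.9% to 68.7% of Pdk1, Pdk2 and Pdk4 in Nkx intact and 22.9% to 43% elsewhere, and Idh2 takes 60% and 62% of Idh1 and Idh2 in Clu intact against 18.2% to 44.8% in the Nkx libraries.

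In the mitochondrial citrate cycle, Idh2 differed and the other 11 genes did not pass in any comparison. Idh2 encodes the mitochondrial isocitrate dehydrogenase that makes NADPH. It was at 66.3 and 77.3 CPM in Nkx intact, 51.2 and 76.3 after castration and 158 and 160 in Clu intact, so that both Clu intact libraries were above all 4 Nkx libraries. Clu intact was 2.22-fold above Nkx intact (log2 fold change 1.15, SE 0.22, adjusted p = 0.016) and 2.5-fold above Nkx castrate (1.32, SE 0.22, adjusted p = 0.00712) by edgeR's quasi-likelihood test, adjusted by Benjamini-Hochberg. Its mean level per kilobase ranked 6 of 41 in Clu intact, 15 in Nkx intact and 16 in Nkx castrate. The call against Nkx intact was lost without any of the 4 libraries compared (adjusted p = 0.0858 to 0.153), and that against Nkx castrate without Clu intact 2 (1.34, adjusted p = 0.0525).

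Cs, citrate synthase, was at 108 and 131 CPM in Nkx intact, 93.6 and 111 after castration and 121 and 137 in Clu intact, and the Clu intact libraries lay above those of Nkx castrate while the other pairs of groups overlapped. The 3 subunits of the NAD-dependent isocitrate dehydrogenase lay close together between groups, with Idh3a at 32.7 to 54.8, Idh3b at 83.9 to 99.1 and Idh3g at 43.6 to 59.3 CPM over all 6 libraries. Ogdh and Dlst, components of the oxoglutarate dehydrogenase complex, were at 160 to 253 and 88.9 to 129 CPM. For Dlst both Clu intact libraries were below all 4 Nkx libraries.

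Succinyl-CoA ligase, which makes succinate with a nucleoside triphosphate, has a shared subunit, Suclg1, and partner subunits that use GDP (Suclg2) or ADP (Sucla2). Suclg1 was at 54.9 and 57.1 CPM in Nkx intact, 49.7 and 104 after castration and 56 and 70.2 in Clu intact. Suclg2 was at 41.1 and 51.9, 56.6 and 85, and 56.9 and 61 CPM in the same order, and Sucla2 at 35.8 to 54.5 CPM over all libraries. Per kilobase, Suclg2 took 57.7% and 60.9% of the partner subunits in Nkx castrate, 45.7% and 45.1% in Nkx intact, and 49.5% and 50% in Clu intact. None of the 3 genes was called.

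Fh1, fumarase, was at 25 and 50.3 CPM in Nkx castrate and at 36.1 to 55.6 CPM in the other libraries. Mdh2, the mitochondrial malate dehydrogenase that closes the cycle, was at 216 in both Nkx intact libraries, 170 and 185 after castration and 153 and 182 in Clu intact, and was not called. Summed over the 12 mitochondrial genes, CPM were 1033 and 1115 in Nkx intact, 940 and 1148 after castration and 1112 and 1263 in Clu intact. The castrate and intact Nkx libraries overlapped in this sum.

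None of the 6 genes for cytosolic citrate and malate handling, the transaminases and the citrate carrier was called. Some alternatives did call Idh1, Mdh1 or Got1. DESeq2, no filter on low counts and the replicate block each called Idh1 higher with castration. The same settings called Idh1 and Got1 lower, and Mdh1 higher, in Clu intact than in Nkx castrate. With only the 2 groups in the fit, none of these results was called. Idh1, the cytosolic NADPH-producing isocitrate dehydrogenase, had the largest uncalled difference with castration. It was at 87.6 and 140 CPM in Nkx intact, 154 and 367 after castration and 113 and 105 in Clu intact. Both castrate libraries were above the other 4, and they differed 2.39-fold from each other. The log2 fold change of Nkx castrate against Nkx intact was 1.19 (SE 0.39, edgeR quasi-likelihood, Benjamini-Hochberg adjusted p = 0.113) and that of Clu intact against Nkx castrate was -1.26 (SE 0.39, adjusted p = 0.065). Without Nkx castrate 2 they became 0.43 and -0.49, and without Nkx castrate 1 they became 1.69 and -1.75. Of Idh1 and Idh2 per kilobase, Idh1 made up 55.2% and 62.8% in Nkx intact, 73.7% and 81.8% after castration and 40% and 38% in Clu intact.

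Slc25a1, the mitochondrial carrier that brings citrate to the cytosol, was at 46.9 and 57.5 CPM in Nkx intact, 45.7 and 54.6 after castration and 44.5 and 43.5 in Clu intact. Aco1, the cytosolic aconitase that doubles as an iron sensor, was at 18.9 and 30.5, 23.4 and 26.4, and 38.1 and 43.2 CPM in the same order, with both Clu intact libraries above all 4 Nkx libraries. Mdh1, the cytosolic malate dehydrogenase, was at 148 and 154, 84.1 and 123, and 156 and 191 CPM, with both castrate libraries below the other 4. Got1, the cytosolic aspartate transaminase, was at 21.5 and 39.9, 23.3 and 42.8, and 15.4 and 13.5 CPM, with Clu intact lowest. Got2, its mitochondrial counterpart, was at 55.2 to 93 CPM over all libraries and overlapped in every comparison.

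Across the 41 genes, Nkx castrate libraries were both above both Nkx intact libraries for 9 genes and both below for 8, where this held for 25.4% and 24.6% of all genes tested, and 24 genes overlapped. Clu intact libraries were both above both Nkx intact libraries for 22 of the 41 genes (53.7%) and both below for 10 (24.4%), beside 31.9% and 31.3% of all genes. Against Nkx castrate the counts were 17 (41.5%) above and 8 (19.5%) below, beside 31.5% and 30% of all genes. Both Clu intact libraries were above all 4 Nkx libraries for 14 of the 41 (34.1%), beside 18.7% of all genes, and below them for 7 (17.1%), beside 18%. The 14 were Hk1, Hk2, Pfkl, Aldoa, Tpi1, Gapdh, Pgk1, Pkm, Ldhb, Dlat, Idh2, Idh3a, Aco1 and Mdh1, and the 7 were Slc2a1, Pfkm, Aldoc, Pdk4, Dlst, Got1 and Slc25a1. Only 3 of these 14 and 2 of these 7 were called against Nkx intact, and these lists were drawn up after their values were seen.

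**Figure D4:**
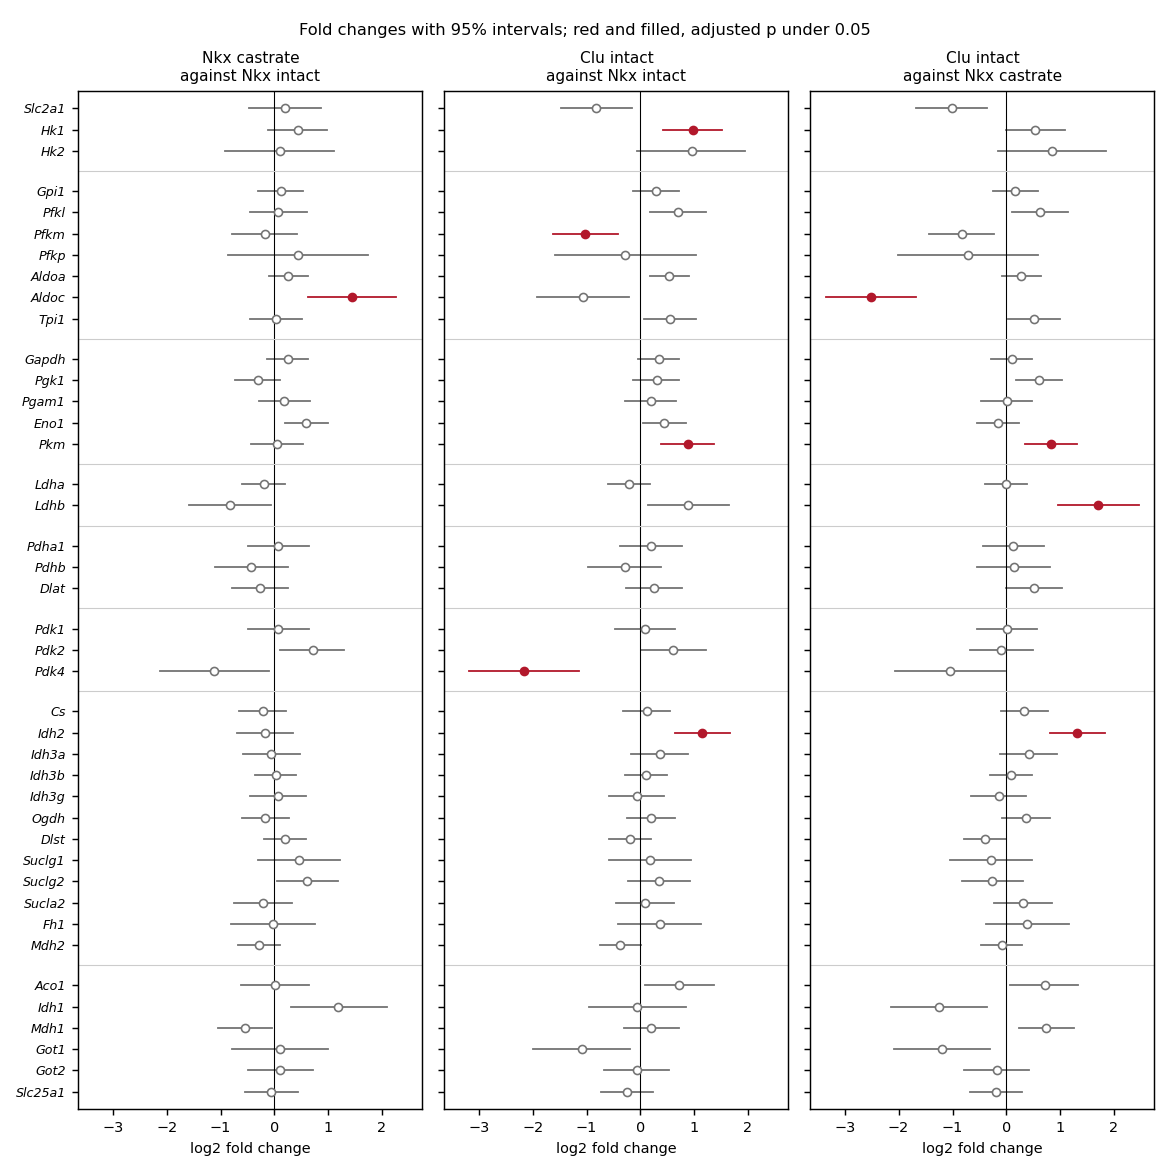
Log2 fold change with its 95% interval for each of the 41 genes in the 3 comparisons, from the edgeR fit over all 6 libraries, ordered by pathway step, with called genes marked. Called genes number 1, 5 and 4 from left to right, and the median over the 41 genes lies at 0.07, 0.2 and 0.1.

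The median log2 fold change of the 41 genes was 0.07 for Nkx castrate against Nkx intact, 0.2 for Clu intact against Nkx intact and 0.1 for Clu intact against Nkx castrate, beside 0.05, -0.01 and 0 over all genes tested. Fold changes over 2-fold in either direction were found for 3 (7.32%), 5 (12.2%) and 7 (17.1%) of the 41, beside 22.3%, 26.8% and 29.3% of all genes. Of the genes not called, 30 of 40, 25 of 36 and 22 of 37 had a 95% interval within 2-fold in both directions, so the remaining 10, 11 and 15 could still differ by 2-fold or more. Over all genes not called, this held for 4752 of 12654, 4761 of 12283 and 3889 of 11504, which include genes at low counts. Uncalled log2 fold changes ran from -1.12 (Pdk4) to 1.19 (Idh1) with castration, from -1.09 (Got1) to 0.95 (Hk2) in Clu intact against Nkx intact, and from -1.26 (Idh1) to 0.85 (Hk2) against Nkx castrate. Summed over all 41 genes, CPM were 4143 and 4487 in Nkx intact, 4479 and 4714 after castration and 4790 and 5301 in Clu intact.

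All 5 calls of Clu intact against Nkx intact (Hk1, Pkm, Idh2, Pfkm and Pdk4) kept their direction but lost significance when any of the 4 libraries of those groups was left out, with adjusted p from 0.0824 to 0.287 by edgeR's quasi-likelihood test, adjusted by Benjamini-Hochberg. They also kept their direction without either Nkx castrate library. Such a fit takes the castrate pair out of the shared spread, so no call is drawn from it. The castrate libraries were the least alike. The ratio of the higher to the lower library had a median over the 41 genes of 1.29 in Nkx castrate, 1.16 in Nkx intact and 1.13 in Clu intact, and it was over 1.5 for 13, 4 and 2 genes. Over all genes tested these medians were 1.37, 1.23 and 1.19. Beside the Clu intact differences stand the proximal luminal markers at 3029 and 3385 CPM and the endothelial markers, of which 6 of 6 were higher in both Clu intact than in both Nkx intact libraries. The basal marker sum was lower in Clu intact, at 1511 and 1847 CPM against 2704 and 2916 CPM in Nkx intact. Krt15, the largest part of that sum, was not lower, at 1086 and 1299 against 1079 and 1091 CPM. The other basal markers were lower in both Clu intact libraries. Rn18s, a ribosomal RNA, took 2.25% and 2.91% of counts in Clu intact and 5.34% and 5.21% in Nkx intact. The mitochondrial ribosomal RNAs went the other way, with 8.57% and 8.5% in Clu intact and 5.29% and 5.72% in Nkx intact. The part of these populations and of library composition in the Clu intact differences was not tested.

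Neighbouring genes of the same pathways were counted in lists by the same test. Of all genes tested, 4.02% were called higher and 4.59% lower with castration. The shares were 6.29% and 5% in Clu intact against Nkx intact, and 8.82% and 8.1% against Nkx castrate. Of 18 other glycolysis genes tested, 0 rose and 3 fell with castration, 2 were higher and 2 lower in Clu intact than in Nkx intact, and 4 were higher and 1 lower in Clu intact than in Nkx castrate. With castration the 3 were Pfkfb4, a kinase that sets the fructose 2,6-bisphosphate activating phosphofructokinase, Slc16a7, a monocarboxylate carrier, and Adpgk, an ADP-dependent glucokinase. Pfkfb4 was at 37.7 and 57.8 CPM in Nkx intact, 13.9 and 6.14 after castration and 33.2 and 35.5 in Clu intact, and its log2 fold change with castration was -2.25 (SE 0.39, edgeR quasi-likelihood, Benjamini-Hochberg adjusted p = 0.0144). It was lost without either Nkx intact library, with a highest adjusted p of 0.132, and was -2.96 without Nkx castrate 1. Slc16a7 was at 260 and 304, 101 and 151, and 211 and 199 CPM in the same order (log2 fold change -1.16, SE 0.22, adjusted p = 0.0184) and was also lost without either Nkx intact library (highest adjusted p 0.167). Adpgk fell from 39 to 18.4 CPM in the mean (-1.08, SE 0.25, adjusted p = 0.0403), which was lost without any Nkx intact or Clu intact library (highest adjusted p 0.277) and with only the 2 groups in the fit (adjusted p = 0.094).

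Glucose transporters other than Slc2a1 differed between the lines, 1 being higher and 1 lower in Clu intact. Slc2a12 was at 1.34 and 2.17 CPM in Nkx intact, 4.99 and 4.29 after castration and 18.1 and 24.6 in Clu intact, and was higher in Clu intact than in Nkx intact by 3.6 on the log2 scale (SE 0.43, edgeR quasi-likelihood, Benjamini-Hochberg adjusted p = 0.00308). Slc2a4, the insulin-responsive transporter, was at 24.8 and 9.48, 6.51 and 3.84, and 1.6 and 2.16 CPM, and lower in Clu intact than in Nkx intact (log2 fold change -3.18, SE 0.58, adjusted p = 0.0154). Without Nkx intact 1 it was -2.31 and not called, with a highest adjusted p of 0.147 over the libraries left out, and it was also lost without either Clu intact library and with limma-voom (adjusted p = 0.0877). The lactate and pyruvate carrier Slc16a1 was also lower in Clu intact, at 13.2 and 16.1 CPM against 37.8 and 45 in Nkx intact (-1.5, SE 0.3, adjusted p = 0.0182), while Ldhd, the D-lactate dehydrogenase, was higher at 27.4 and 31.7 against 11.1 and 9.28 CPM (1.54, SE 0.27, adjusted p = 0.0122). Both were lost without any of the 4 libraries compared (highest adjusted p 0.142 and 0.132), whereas Slc2a12 held whichever library was left out (highest adjusted p 0.0362).

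Of 15 tested genes for transport and use of citrate and malate, 0 rose and 4 fell with castration, beside 4.02% and 4.59% of all genes. The 4 were Gpt2, Gpt, Slc25a13 and Me2. Gpt2, the mitochondrial alanine transaminase that links pyruvate to oxoglutarate, was at 311 and 412 CPM in Nkx intact, 54.4 and 70.5 after castration and 225 and 168 in Clu intact. It fell 5.79-fold with castration (log2 fold change -2.53, SE 0.23, edgeR quasi-likelihood, Benjamini-Hochberg adjusted p = 0.00154), and this held whichever library was left out, with a highest adjusted p of 0.0287. Gpt, the cytosolic form, was at 17.2 and 19, 3.82 and 2.66, and 4.98 and 3.39 CPM (-2.47, adjusted p = 0.0133 by the same test). Slc25a13, a mitochondrial aspartate-glutamate carrier, was at 15.3 and 23.1, 5.33 and 4.14, and 7.59 and 10.3 CPM (-2.02, adjusted p = 0.021). Me2, a mitochondrial malic enzyme, was at 23.7 and 22.9, 5.39 and 7.98, and 8.77 and 10.2 CPM (-1.8, adjusted p = 0.0176). The calls of Gpt, Slc25a13 and Me2 were lost without either Nkx intact library (highest adjusted p 0.117, 0.176 and 0.122).

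In Clu intact against Nkx intact, 2 genes of this list were higher and 3 lower, and against Nkx castrate 2 were higher and 1 lower. Beside these counts stand 6.29% and 5%, and 8.82% and 8.1%, of all genes. Slc25a10, the mitochondrial dicarboxylate carrier, was at 31.2 and 20.1 CPM in Nkx intact, 18.6 and 23.7 after castration and 67.2 and 76.6 in Clu intact. It was higher in Clu intact by 1.49 (SE 0.27, adjusted p = 0.013) and 1.77 (SE 0.27, adjusted p = 0.00503) on the log2 scale, by edgeR's quasi-likelihood test, adjusted by Benjamini-Hochberg. The first of these was lost without Nkx intact 2 or either Clu intact library, with a highest adjusted p of 0.105. Me1, the cytosolic malic enzyme that makes NADPH, was at 22.8 and 22.2, 33.5 and 44.9, and 50.4 and 61.2 CPM, and higher in Clu intact than in Nkx intact (1.31, SE 0.23, adjusted p = 0.0123), which was lost without any of the 4 libraries compared (highest adjusted p 0.115).

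The 3 genes lower in Clu intact than in Nkx intact were Gpt (-2.11, SE 0.42, adjusted p = 0.0194), Me2 (-1.3, SE 0.33, adjusted p = 0.0453) and Gpt2 (-0.88, SE 0.23, adjusted p = 0.0497), on the log2 scale by edgeR's quasi-likelihood test, adjusted by Benjamini-Hochberg. All 3 were lost without any of the 4 libraries compared (highest adjusted p 0.166, 0.274 and 0.374), and Gpt2 also with library totals (adjusted p = 0.0561) or without the 20 most abundant genes (adjusted p = 0.0517). Me3, another mitochondrial malic enzyme, was at 8.51 and 2.07 CPM in Nkx intact, 24.7 and 26.2 after castration and 4.39 and 1.32 in Clu intact. It was lower in Clu intact than in Nkx castrate (-3.15, SE 0.71, adjusted p = 0.0253). That was lost without Clu intact 2 (-2.51, adjusted p = 0.146) and was -4.24 without Clu intact 1. Gpt2 was higher in Clu intact than in Nkx castrate (1.65, SE 0.23, adjusted p = 0.00374), which held whichever library was left out (highest adjusted p 0.0238).

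The remaining lists held fewer calls. Of all genes, 8.61% were called with castration, 11.3% in Clu intact against Nkx intact and 16.9% against Nkx castrate. Of 8 genes for pyruvate import and partners of pyruvate dehydrogenase, 1 was called, Pdk3, which was higher in Clu intact than in Nkx castrate (26.7 against 12 CPM, log2 fold change 1.15, edgeR quasi-likelihood, Benjamini-Hochberg adjusted p = 0.0359). Of 7 pentose phosphate genes, 0 were called with castration, 1 was higher in Clu intact than in Nkx intact (G6pdx, the entry enzyme, 0.96, adjusted p = 0.0463) and 2 were higher than in Nkx castrate (Rpe, 1.24, adjusted p = 0.0192, and Pgd, 1.03, adjusted p = 0.0164). Of 5 tested genes of glucose synthesis, 1 was called, Fbp2, which was higher in Clu intact than in Nkx intact (7.37 against 0.679 CPM, log2 fold change 3.42, adjusted p = 0.0228). The calls of Pdk3, G6pdx and Fbp2 were lost without any Nkx intact or Clu intact library, that of Rpe without either Clu intact library and that of Pgd without Clu intact 2 (highest adjusted p 0.279, 0.345, 0.197, 0.134 and 0.164). With limma-voom G6pdx and Fbp2 were not called (adjusted p = 0.065 and 0.0923), and with only the 2 groups in the fit Pdk3 and Rpe were not (adjusted p = 0.0728 and 0.0535).

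A list of 14 genes held genes known to respond to low oxygen outside glycolysis and genes of the hypoxia-inducible factors themselves. Of the 14, 2 rose and 0 fell with castration, beside 4.02% and 4.59% of all genes. In Clu intact, 0 of the 14 were higher and 2 lower than in Nkx intact, beside 6.29% and 5% of all genes. Against Nkx castrate 0 were higher and 4 lower, beside 8.82% and 8.1%. The list did not move together with castration. Its log2 fold changes were positive for 7 genes and negative for 7, with a median of 0. At an unadjusted p under 0.05 by edgeR's quasi-likelihood test, 3 were higher and 3 lower, beside 11.9% and 11.6% of all genes. Vegfa, the vascular growth factor, was at 158 and 150 CPM in Nkx intact, 566 and 895 after castration and 87.1 and 87.4 in Clu intact. It rose 4.74-fold with castration (log2 fold change 2.24, SE 0.23, edgeR quasi-likelihood, Benjamini-Hochberg adjusted p = 0.00221) and missed the threshold without Nkx intact 2 (highest adjusted p 0.0507). Hif1a, the oxygen-regulated transcription factor, was at 134 and 123, 297 and 333, and 141 and 130 CPM, and rose by 1.29 on the log2 scale (SE 0.16, adjusted p = 0.00427). That call was lost without either Nkx intact library, with a highest adjusted p of 0.0821.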

How the data were processed

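RNA of sorted cells was sequenced after library preparation from 2 ng of total RNA with the SMARTer Stranded Total RNA-Seq Kit, per the labels' protocols. The deposited values are the authors' raw counts for each gene symbol in 6 libraries. The submitters' processing notes name build GRCm39, STAR 2.7.9a, featureCounts of Subread 2.0.1, and FastQC 0.11.9. Nothing is given in the sources used here on annotation release, strand setting, repeated alignments or molecular identifiers.

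In R 4.3.3, edgeR 4.0.16 (filterByExpr, TMM, glmQLFit over all 6 libraries with a mean per group, 3 residual degrees of freedom, two-sided F test, Benjamini-Hochberg over 13846 genes) gave each comparison. Intervals are 95% intervals on 7.86 degrees of freedom. The fit was also run on simulated data, but no outcome is reported here and nothing is drawn from it. Alternatives were other scaling, no filter, limma-voom (limma 3.58.1), DESeq2 1.42.0, a fit of the 2 groups alone, a replicate block and leaving out each library. Levels per kilobase use merged exons of GENCODE release M21 (build GRCm38), and promoters come from RefSeq (GRCm38.p6). Libraries of a group differed by more than counting noise, with a chi-square per degree of freedom of 15.1, 70.9 and 17.1 in Nkx intact, Nkx castrate and Clu intact.

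The pathway genes, the related lists and the naming rule were chosen with earlier results of these data known. Any of the 41 genes may be named. From a related list, at most 4 called genes per comparison, those of largest change, or genes called in all 3 are named. A list of further citrate cycle genes is not reported here.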

Additional observations from a re-analysis of the deposited data

How the results depend on the processing

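No called gene among the 41 changed direction under any alternative. With castration, the number of the 41 genes called higher (1 as reported) was 3 with no filter on low counts, 3 with DESeq2, 0 with limma-voom, 0 with only the 2 groups compared and 2 with the replicate block. The number called lower (0) was 1 with no filter. For Clu intact against Nkx intact, the number higher (3) was 5 with no filter and 9 with only the 2 groups compared, and the number lower (2) was 4, 1 and 4 with no filter, limma-voom and only the 2 groups compared. For Clu intact against Nkx castrate, the number higher (3) was 5 with library totals, 7 with no filter, 5 with DESeq2 and 5 with the replicate block, and the number lower (1) was 2 with RLE size factors, 6 with no filter, 5 with DESeq2 and 4 with the replicate block. The cause was not tested. Leaving out each library in turn gave 0 to 6 higher and 0 to 2 lower with castration, 0 to 10 and 0 to 5 in Clu intact against Nkx intact, and 0 to 7 and 0 to 6 against Nkx castrate. The Hk2 log2 fold change with castration (0.1, not called) was -0.09 with limma-voom, -0.02 with the replicate block and -0.94 to 0.69 over the libraries left out, and that of Pfkp (0.43, not called) was -1.03 to 1.13. The log2 ratio of the glucose uptake sum, Clu intact against Nkx intact, was 0.21 with library totals. Whether replicate numbers pair the libraries is not known. Same-numbered deviations from the group means correlated at 0.0901, 0.0437 and 0.235, the last for Nkx castrate with Clu intact. With 2 libraries per group these values cannot decide it, so the block is a hint only. Of the genes not called, 10, 11 and 15 had a 95% interval reaching past 2-fold in the 3 comparisons.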
